A study of Homo sapiens with 4 samples.

Results

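The enzymes that make and break down heme were followed in 2 human liver cancer cell lines treated by sonodynamic therapy (SDT). The 9 members were chosen by name as heme pathway genes, because the sensitizer given to the cells is itself a porphyrin. They were taken to be among the 22148 genes in the background of the deposited gene ontology (GO) tables. Those tables name only genes called differentially expressed, so this could not be checked for the other members, nor for the other gene lists below. They are ALAS1, ALAD, UROS, UROD, CPOX, PPOX and FECH on the side of synthesis, and HMOX1 and BLVRB on the side of breakdown.

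HepG2 and Huh7 are established lines labelled as hepatocellular carcinoma (HCC). Groups A and C were HepG2 and Huh7 cells before treatment, and groups B and D were the same lines after treatment with targeted nanobubbles carrying the sensitizer HMME, a hematoporphyrin ether, together with lonidamine (LND), combined with ultrasound in SDT. Each group was 1 library of total RNA depleted of ribosomal RNA, and the time between treatment and RNA isolation is not given in the sources used here. The treated groups differed from the untreated ones in HMME, LND, nanobubbles and ultrasound at once, and the effects of these cannot be told apart.

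The deposited tables name mRNA genes that the authors called differentially expressed in groups B vs. A and in groups D vs. C. The paper reports more such genes in each line than the GO tables name. A gene is called listed below when its identifier stands in any row of the GO table of that comparison. The tables give neither the level of a gene nor whether it rose or fell, so every result below is a presence in a list. A gene that is not listed may have been unchanged, too low to test, not detected, or called but absent from the GO table. With 1 library in each group, no value has a replicate error and no test was made. The labelled cell type could therefore not be checked by marker levels.

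Heme is an iron-bearing porphyrin. Synthesis starts in mitochondria, where 5-aminolevulinate synthase joins glycine and succinyl-CoA, passes through the cytosol and ends in mitochondria again, where ferrochelatase puts iron into protoporphyrin IX. Liver cells make much heme for cytochromes P450, and in most cells the first enzyme is ALAS1, which heme itself restrains. Heme oxygenase opens the ring to biliverdin, iron and carbon monoxide, biliverdin reductase makes bilirubin, and in the liver a UDP-glucuronosyltransferase (UGT) joins bilirubin to glucuronic acid for excretion.

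The first step has a housekeeping gene and an erythroid gene, and ALAS2, which encodes the erythroid enzyme, was listed in Huh7 cells, whereas ALAS1, its housekeeping counterpart and a member, was listed in neither line. The 250 bases before the RefSeq start of each gene are shown for this contrast, from RefSeq promoters on GRCh38.p14, with the letters GATAA on either strand in capitals, a core of the sites that erythroid GATA factors bind. The ALAS1 stretch lies at chr3:52197833-52198082 on the plus strand and the ALAS2 stretch at chrX:55030978-55031227 on the minus strand. GENCODE 29, which gives the gene spans printed below, starts ALAS2 further upstream, so that the last 87 bases of its stretch lie inside the GENCODE gene, the match nearest the RefSeq start included.
ALAS1: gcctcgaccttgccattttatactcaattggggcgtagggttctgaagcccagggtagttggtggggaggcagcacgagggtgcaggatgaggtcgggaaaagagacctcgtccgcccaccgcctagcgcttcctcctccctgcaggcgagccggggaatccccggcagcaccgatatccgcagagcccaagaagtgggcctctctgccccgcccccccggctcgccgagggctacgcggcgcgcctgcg
ALAS2: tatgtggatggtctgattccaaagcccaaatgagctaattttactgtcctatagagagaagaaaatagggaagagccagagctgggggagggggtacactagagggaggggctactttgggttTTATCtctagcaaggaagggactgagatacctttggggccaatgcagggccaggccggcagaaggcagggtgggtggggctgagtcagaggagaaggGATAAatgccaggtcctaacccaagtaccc
The ALAS1 stretch held 0 matches and had a GC content of 67.2%. The ALAS2 stretch held 2 matches, at -127 on the minus strand and at -30 on the plus strand of the gene, and had a GC content of 52.8%. GATAA stood in 7179 of 35116 RefSeq promoters of this length, or 20.4%, so a match is common and describes only the letters. Genes that were not listed held matches too: CPOX, listed in neither line, also held 2, and 1 of the 2 entries of PPOX, also listed in neither line, held 1. The longer form GATAAG, in 5.65% of all promoters, was found in those CPOX and PPOX stretches, 1 match each, and not in that of ALAS2. The other enzymes with an entry held no GATAA. Of the 12 enzymes looked for (the 9 members and 3 other enzymes of the same reactions), 10 had a promoter entry, 7 of them members. The 2 without an entry were HMOX1 and UROS, the only members listed in either line. No promoter of a listed member was therefore searched, and ALAS2 was the only listed enzyme among those searched.

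In HepG2 cells, 1 of the 9 members was listed after SDT, which was HMOX1, heme oxygenase 1, the stress-inducible enzyme that opens the heme ring. This was 11.1% of the members, beside 21.6% of all background genes listed in groups B vs. A. In Huh7 cells, 2 of the 9 members were listed, HMOX1 and UROS, or 22.2%, beside 19.7% of all background genes in groups D vs. C. Both shares lay near the background for so few genes. The 95% Wilson interval ran from 1.99% to 43.5% in HepG2 cells and from 6.32% to 54.7% in Huh7 cells, and covers only the small number of genes. The difference between the lines was not tested.

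HMOX1 was the only member listed in both lines. It made up 1 of 1 listed member in HepG2 and 1 of 2 in Huh7 cells. Of all genes, 2281, or 10.3% of the background, were listed in both lines, which was 47.7% of the HepG2 list and 52.2% of the Huh7 list. The 2 comparisons share no library.

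**Figure D1:**
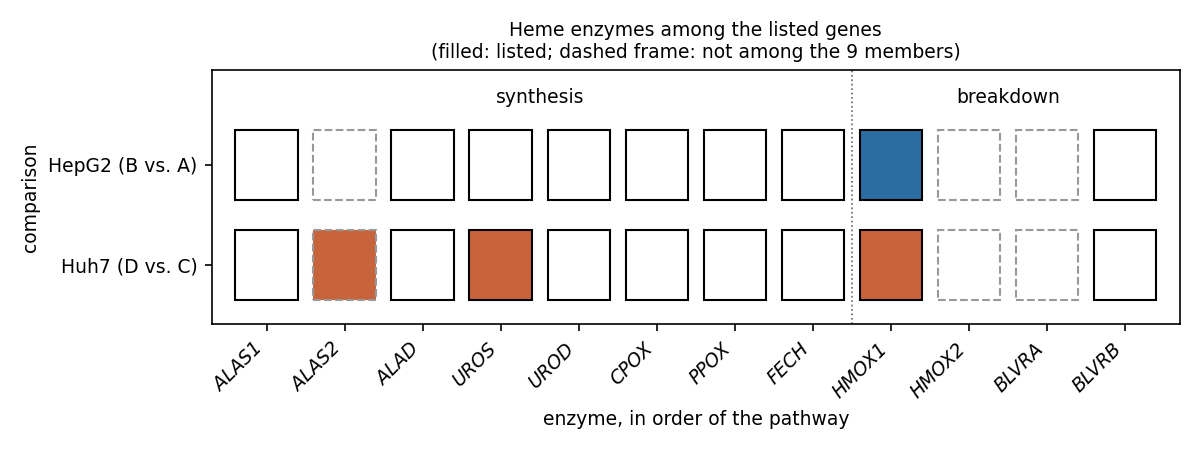
Heme enzymes in pathway order (x axis) against the comparison (y axis), with a filled square where the gene was listed and a dashed frame for the 3 enzymes that are not members. HMOX1 is filled in both lines, UROS and ALAS2 in Huh7 cells, and the other squares are empty.

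On the side of synthesis, 0 of 7 members were listed in HepG2 and 1 of 7 in Huh7 cells. These were 0% and 14.3%, beside 21.6% and 19.7% of all genes. The Wilson intervals, from 0% to 35.4% and from 2.57% to 51.3%, span those shares. The 1 member listed was UROS (ENSG00000188690), uroporphyrinogen III synthase, which closes the ring of 4 pyrroles, at chr10:125784980-125823285 on the minus strand (GENCODE 29, GRCh38). It stood under 86 GO terms of the Huh7 table, among them uroporphyrinogen-III synthase activity, for which it is the 1 background gene. A microRNA gene, MIR4484, overlaps UROS on the opposite strand over 83 bases.

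The other 6 enzymes of synthesis were listed in neither line. ALAS1, the first and rate-limiting step in liver, stood under no term, nor did ALAD, which joins 2 aminolevulinate molecules into a pyrrole. UROD and CPOX, which trim the side chains of the ring, and PPOX, which oxidizes it to protoporphyrin IX, were absent too. FECH, ferrochelatase, which inserts the iron, was likewise not listed. CPOX shares 6053 bases with an annotated gene on the same strand, AC021660.3, and PPOX shares 6659 bases with B4GALT3 on the opposite strand. How the authors' counting assigned reads in such stretches is not given in the sources used here.

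On the side of breakdown, 1 of 2 members was listed in each line. The Wilson interval, from 9.45% to 90.5%, spans the 21.6% and 19.7% of all genes. HMOX1 (ENSG00000100292) lies at chr22:35380361-35394214 on the plus strand, and no other annotated gene overlaps it. It stood under 515 GO terms in each comparison. BLVRB, which reduces biliverdin IX-beta and flavins, was listed in neither line.

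The 3 other enzymes examined beside the members added 1 gene in 1 line. HMOX2, the constitutive heme oxygenase, and BLVRA, the main biliverdin reductase, were listed in neither line. ALAS2 (ENSG00000158578, chrX:55009055-55031064 on the minus strand), whose promoter stretch is given above, was listed in Huh7 cells under 132 GO terms. Counted with the members, 1 of 12 enzymes was listed in HepG2 and 3 of 12 in Huh7 cells, beside 21.6% and 19.7% of all genes.

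The terms that hold HMOX1 are of many kinds, and the following stress terms were picked from them after their counts had been seen. Under response to oxidative stress, 123 of 441 background genes were listed in HepG2 and 100 in Huh7 cells. These were 27.9% and 22.7%, beside 21.6% and 19.7% of all genes. Under cellular response to hypoxia, the listed genes were 50 and 45 of 162, or 30.9% and 27.8%. Cellular response to heat stood near the background, with 25 and 24 of 120 genes, or 20.8% and 20%. These counts are of all genes of a term and say nothing of the size of the change in HMOX1.

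Under cellular response to arsenic-containing substance, also picked after its counts had been seen, 6 of 12 background genes were listed in HepG2 and 7 in Huh7 cells. These were 50% and 58.3% of a small term, beside 21.6% and 19.7% of all genes. The 6 were HMOX1, ATF3 and ATF4 (stress transcription factors), GSTO2 (a glutathione transferase), MKNK2 (a kinase of the initiation factor eIF4E) and ZFAND2A, and all were listed in both lines. UROS was the 1 gene added in Huh7 cells. Both listed members thus stood under this term, as they did under others, such as heme metabolic process and response to metal ion.

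HMOX1 stood in 4 pathway rows of the table for KEGG, a database of pathways, in each line. Summed over the rows of the KEGG table, 26.3% of the background numbers were listed in HepG2 and 25.8% in Huh7 cells. In the HIF-1 signaling pathway 29 of 106 genes were listed in HepG2 and 28 in Huh7 cells, or 27.4% and 26.4%, near that share. In Mineral absorption the numbers were 17 and 13 of 51, or 33.3% and 25.5%. In MicroRNAs in cancer they were 48 and 44 of 297, or 16.2% and 14.8%, below that share. ALAS2 stood in Glycine, serine and threonine metabolism in Huh7 cells, where 22 of 40 genes were listed, ALAS2 among them, or 55%. Only pathways with a listed heme enzyme were looked at, so no HepG2 number of this pathway is given.

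The fourth row was Porphyrin and chlorophyll metabolism. It held 5 listed genes of 41 in HepG2 cells, or 12.2%, with a Wilson interval from 5.32% to 25.5%. In Huh7 cells it held 15 of 41, or 36.6%, with an interval from 23.6% to 51.9%. Few of these were heme enzymes: 3 of the 5 in HepG2 and 10 of the 15 in Huh7 cells were UGT genes, or 60% and 66.7%. The others were HMOX1 and CP (ceruloplasmin, a copper ferroxidase) in both lines, and UROS, ALAS2 and MMAB (an enzyme of cobalamin metabolism) in Huh7 cells.

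**Figure D2:**
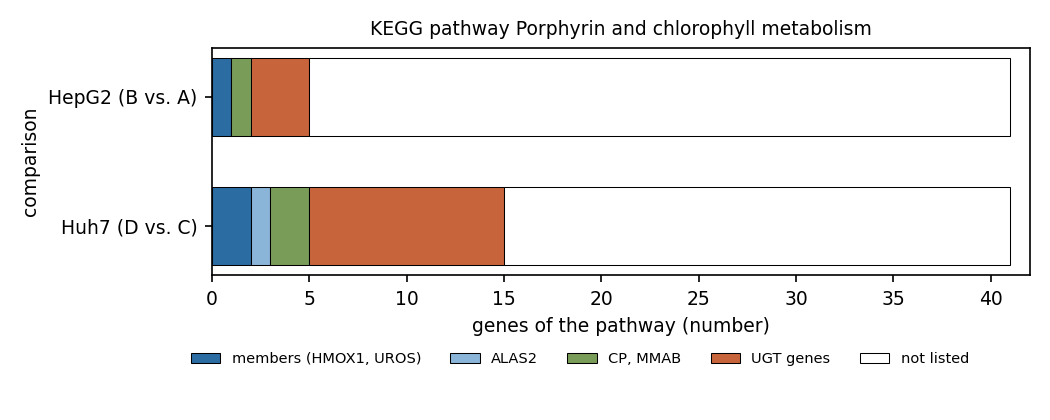
Number of genes of the KEGG pathway Porphyrin and chlorophyll metabolism (x axis, 41 in all) in each comparison (y axis), split into members, ALAS2, CP and MMAB, UGT genes and genes not listed. UGT genes fill 3 of 5 listed places in HepG2 and 10 of 15 in Huh7 cells.

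The table does not name the unlisted genes of the row, and all 19 UGT genes looked for were taken to belong to it. Without them, 2 of 22 genes of the row were listed in HepG2 and 5 of 22 in Huh7 cells, or 9.09% and 22.7%, so the Huh7 share fell to near the 19.7% of all background genes. Of the 19, 3 were listed in HepG2 cells (UGT1A6, UGT2A1 and UGT2B4) and 10 in Huh7 cells, or 15.8% and 52.6%. The 10 were UGT1A1, UGT1A4, UGT2A1, UGT2A2, UGT2A3, UGT2B4, UGT2B7, UGT2B10, UGT2B15 and UGT2B17, and UGT2A1 and UGT2B4 were listed in both lines. UGT1A1 is the enzyme that conjugates bilirubin. The UGT1A genes share their last exons, and UGT2A1 and UGT2A2 overlap, so reads may not tell these genes apart and they cannot be counted as separate events. With the UGT1A genes counted as 1 gene, the share of the row listed was 15.2% in HepG2 and 42.4% in Huh7 cells. The shares rose because the unlisted UGT1A genes also left the background of the row. UGT2A1 and UGT2A2 were still counted separately.

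Among the GO terms for heme, those for synthesis held shares of listed genes below that of all genes in HepG2 cells, and on both sides of it in Huh7 cells. Heme biosynthetic process had 25 background genes, of which 2 were listed in HepG2 and 4 in Huh7 cells, or 8% and 16%. IBA57, an iron-sulfur cluster factor and no enzyme of the pathway, was among them in both lines, and UROS and ALAS2 were among them in Huh7 cells. Under protoporphyrinogen IX biosynthetic process, with 10 background genes, HepG2 cells had no row and Huh7 cells had UROS and ALAS2, or 20%. Tetrapyrrole biosynthetic process had 4 of 33 genes listed in HepG2 and 7 of 33 in Huh7 cells, or 12.1% and 21.2%. Uroporphyrinogen III biosynthetic process had 2 background genes, of which UROS was listed in Huh7 cells.

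The terms for breakdown differed in their numbers mainly by UGT genes. Heme catabolic process had 8 background genes, with HMOX1 alone listed in HepG2 cells and HMOX1, UGT1A1 and UGT1A4 listed in Huh7 cells. These were 12.5% and 37.5%, beside 21.6% and 19.7% of all genes. Bilirubin conjugation had no row in HepG2 cells, and both of its 2 background genes, UGT1A1 and UGT1A4, were listed in Huh7 cells. The wider term heme metabolic process had 4 of 35 genes listed in HepG2 and 9 of 35 in Huh7 cells, or 11.4% and 25.7%.

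**Figure D3:**
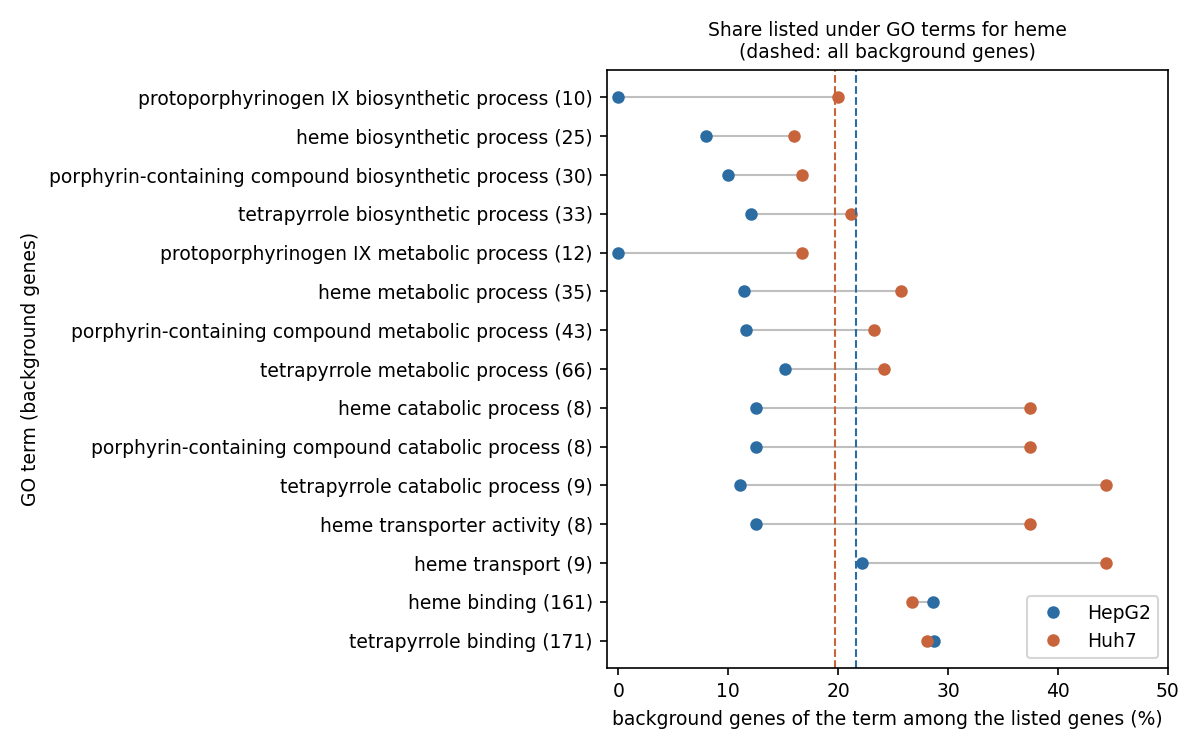
Share of the background genes of each heme GO term that were listed, in percent (x axis), by term with its number of background genes (y axis), with dashed lines at 21.6% (HepG2) and 19.7% (Huh7) for all background genes. A term without a row in a table is drawn at 0, synthesis terms lie at or below the dashed lines in HepG2 cells, and the terms with 8 or 9 genes move by over 10 percentage points with each gene.

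The genes taken as carriers of heme and porphyrins were listed at about the rate of all genes. Of these 17, 3 were listed in each line, or 17.6%, beside 21.6% and 19.7% of all genes. ABCB10, a mitochondrial transporter of erythroid cells, was listed in both lines, and SLC15A2 and SLC19A1 in HepG2 cells. ABCB6, a porphyrin transporter, and SLC48A1, a heme transporter of lysosomes, were listed in Huh7 cells. Of the listed carriers, only ABCB6 and SLC48A1 stood under the GO term heme transport. That small term had 2 of 9 genes listed in HepG2 and 4 of 9 in Huh7 cells, or 22.2% and 44.4%. HPX and HRG were among them in both lines. Heme transporter activity had 1 and 3 of 8 genes listed, or 12.5% and 37.5%.

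Proteins that bind or scavenge heme gave 3 of 13 genes in HepG2 and 4 of 13 in Huh7 cells. These were 23.1% and 30.8%, beside 21.6% and 19.7% of all genes. The Wilson intervals, from 8.18% to 50.3% and from 12.7% to 57.6%, span those shares. HPX, hemopexin, the plasma protein that takes up free heme, was listed in both lines, as was ALB, albumin, which also binds heme. PGRMC2, a heme chaperone, was listed in HepG2 cells, and HPR, a relative of haptoglobin, and FABP1, a fatty acid binding protein of liver, in Huh7 cells. Of 7 genes for heme insertion and heme a synthesis, CYB5A, cytochrome b5, was the 1 listed, in both lines.

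Of the regulators of heme genes, the listed ones numbered 7 of 18 in HepG2 and 8 of 18 in Huh7 cells, or 38.9% and 44.4%. The Wilson interval ran from 20.3% to 61.4% in HepG2 cells, which spans the 21.6% of all genes, and from 24.6% to 66.3% in Huh7 cells. MAFF, MAFG and MAFK, the small Maf proteins that pair with BACH1 or NRF2 on the HMOX1 enhancers, were listed in both lines. NR1D1, a nuclear receptor that has heme as its ligand, LONP1, a mitochondrial protease that degrades ALAS1, and HNF4A, a hepatocyte transcription factor, were also listed in both. SIRT1 was listed in HepG2 cells alone, and BACH1, the heme-sensing repressor of HMOX1, and NR1I3, a xenobiotic receptor that acts on ALAS1, in Huh7 cells alone. NFE2L2, which encodes NRF2, and KEAP1, its inhibitor, were listed in neither line. The regulators were chosen with earlier results of these data known, so their share is a description.

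Genes of iron handling gave 5 of 28 in HepG2 and 9 of 28 in Huh7 cells, or 17.9% and 32.1%, beside 21.6% and 19.7% of all genes. The Wilson intervals, from 7.88% to 35.6% in HepG2 and from 17.9% to 50.7% in Huh7 cells, span these shares. FTH1 and FTL, the ferritin chains that store the iron HMOX1 sets free, were listed in both lines, as were STEAP3, an endosomal iron reductase, and CP. Ferritin genes have many processed copies in the genome, which makes their calls uncertain. HFE was listed in HepG2 cells alone. HAMP, which encodes hepcidin, HJV, BMP6, TMPRSS6 and SLC39A8, a metal importer, were listed in Huh7 cells alone.

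**Figure D4:**
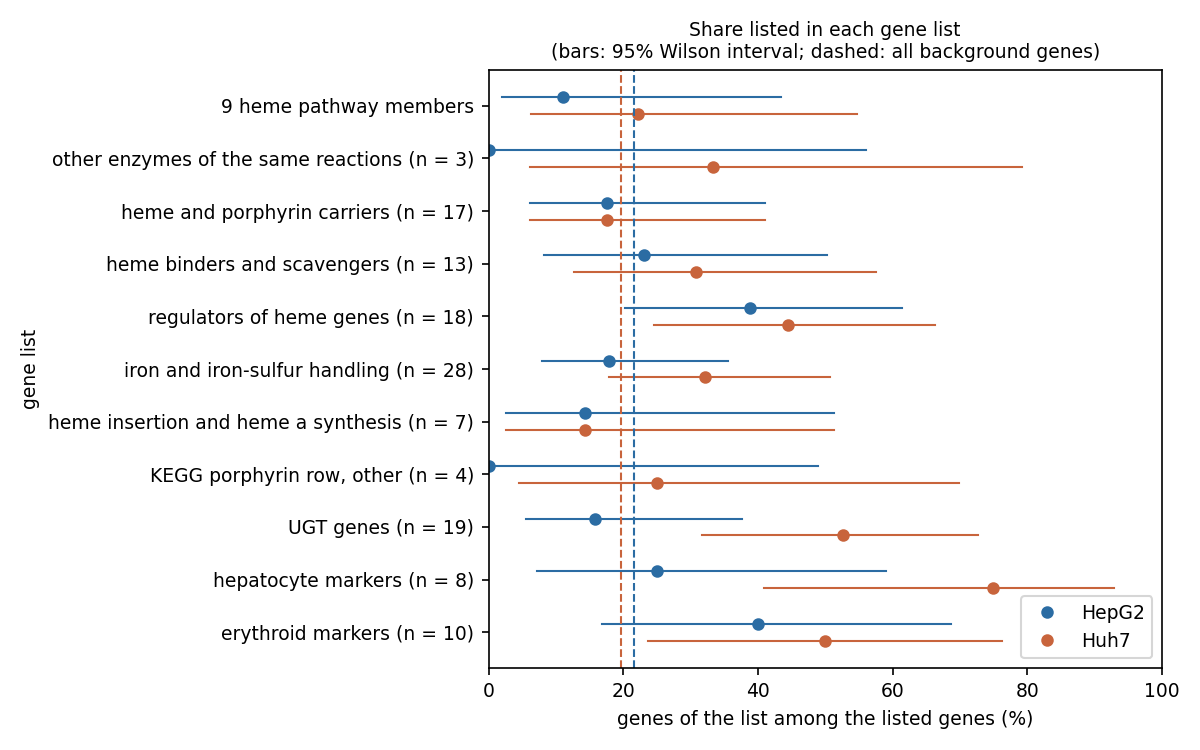
Share of each gene list that was listed, in percent (x axis), by list (y axis), with bars for the 95% Wilson interval and dashed lines for all background genes (21.6% in HepG2 cells, 19.7% in Huh7 cells). In Huh7 cells the bars of the regulators, the UGT genes, the hepatocyte markers and the erythroid markers lie above the dashed line. The last do so only with ALAS2 counted among them. In that line the bars of the regulators and the erythroid markers span the 25.8% listed over sums of KEGG pathways. All lists were chosen with earlier results of these data known, and some genes may share reads, so the bars are no test. The bars of the 9 members span the dashed lines of both cell lines.

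Markers of cell types were listed beside these genes. Of 8 hepatocyte markers, ALB and AFP were listed in both lines, and TTR, APOA1, APOB and FGB in Huh7 cells, which gave 2 of 8 and 6 of 8, or 25% and 75%, beside 21.6% and 19.7% of all genes. The Wilson interval ran from 7.15% to 59.1% in HepG2 cells, across the share of all genes, and from 40.9% to 92.9% in Huh7 cells. Of 10 erythroid markers, 4 were listed in HepG2 cells (HBA1, HBA2, HBB and EPOR) and 5 in Huh7 cells (HBA1, HBA2, EPOR, ALAS2 and GATA1), or 40% and 50%. The interval ran from 16.8% to 68.7% in HepG2 cells, across the share of all genes, and from 23.7% to 76.3% in Huh7 cells. ALAS2 is itself one of these markers, and without it 4 of 9 were listed in each line, or 44.4%, with an interval from 18.9% to 73.3% that spans the share of all genes in both. HBA1 and HBA2 are near-identical and may share reads. GATA1, the erythroid factor, was thus listed in the same line as ALAS2. The part of these markers in the listing of ALAS2 and of the UGT genes was not tested.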

How the data were processed

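The 4 groups, which the sample labels name, were 1 library each of total RNA freed of ribosomal RNA. The submitters' processing notes name HISAT2, Bowtie2 2.2.8, StringTie 1.3.1 and Cuffdiff 2.1.1. The genome build and the strand setting are not given in the sources used here. The authors called differentially expressed mRNA genes at an adjusted p-value under 0.05, with Cuffdiff in the methods and edgeR in the results of the study. They then tested GO terms with GOseq and KEGG pathways with KOBAS. Of this, the authors deposited 4 tables, and the values used are their numbers of listed and background genes per row with the gene identifiers. Their p-value columns were not used. The tables hold no reads, so depth is unknown here.

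A gene counted as listed when its Ensembl identifier stood in any GO row. Of 4783 listed genes in HepG2 and 4369 in Huh7 cells, 4768 and 4360 were matched to a symbol and to a protein-coding gene of GENCODE 29. Shares have 95% Wilson intervals (Python 3.11.15, SciPy 1.17.1), which cover the number of genes only. Promoters came from RefSeq. The reading of gene names from GO rows was tried on simulated rows that together held every simulated listed gene. The other counts were not tested in this way. The members and all gene lists were chosen with earlier results of these data known. Named are all members, the 3 other enzymes, the listed genes of the porphyrin pathway, and of each list the genes listed in both lines, then in 1. A few genes are not reported here. Exceptions, chosen after their values were seen, are the genes named under GO terms, the stress terms, and NFE2L2 and KEAP1. Alternatives were other tables, other GO terms, UGT genes left out, and other backgrounds. Results for lncRNAs and circRNAs were not used here.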

Additional observations from a re-analysis of the deposited data

How the results depend on the processing

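Of 28 alternative values, 23 stayed near the value reported and 5 moved. The number of listed members stayed at 1 (HepG2), 2 (Huh7) and 1 (both) with the KEGG table, with either table, and with biological process rows alone. The KEGG and GO tables come from the same calls of the authors. Exchanging or restricting them could hardly move a count, so such values among the 23 are no independent support. With the 3 other enzymes counted, the numbers became 1, 3 and 1, and the rise from 2 to 3 in Huh7 cells was counted as near. The share of the porphyrin pathway listed in Huh7 cells moved from 36.6% to 22.7% without the UGT genes, and to 42.4% with the UGT1A genes counted as 1 gene, which lies within its interval. The share of all genes listed rose from 21.6% to 23.9% over protein-coding genes of GENCODE 29 and to 26.3% over sums of KEGG pathways in HepG2 cells, and from 19.7% to 21.9% and 25.8% in Huh7 cells. Against these backgrounds the 22.7% stands below or beside the share of all genes. Counting the other lists by either table, an alternative chosen after seeing the data, left them at 27 and 46 listed genes of 124. Leaving ALAS2 out of the erythroid markers, chosen in the same way, gave 44.4% in both lines in place of 40% and 50%.

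The lists come from 1 library per group, so leaving out a replicate was not possible, and a call compares libraries rather than conditions. No paired analysis was possible because each group has 1 library and the tables hold no value per library. No level, direction or depth stands behind a listed gene, and no test was made.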

Other observations

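The GO term heme binding covers the proteins that use heme and had 161 background genes. Of these, 46 were listed in HepG2 and 43 in Huh7 cells, or 28.6% and 26.7%, beside 21.6% and 19.7% of all genes. Over sums of KEGG pathways the share of all genes was 26.3% and 25.8%. The 2 lines shared 22 of the heme-binding genes. Of all listed genes, 47.7% of the HepG2 list and 52.2% of the Huh7 list were shared. Cytochromes P450 made up 14 of the listed heme-binding genes in HepG2 and 16 in Huh7 cells. CYP2B6, CYP2C19, CYP3A7, CYP3A43, CYP4F12 and CYP24A1 were among those listed in both lines, CYP7A1, the first enzyme of bile acid synthesis, in HepG2 cells, and CYP2E1 and CYP3A5 in Huh7 cells. P450 genes of a subfamily are similar in sequence, and reads may be shared between them.

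Globin genes, by symbol, were 9 of the listed heme-binding genes in HepG2 and 3 in Huh7 cells. HBA1, HBA2 and HBE1 were listed in both lines, whereas HBB, HBD, HBQ1, MB (myoglobin), NGB (neuroglobin) and CYGB (cytoglobin) were listed in HepG2 cells. Hemoglobin complex had 7 of 13 background genes listed in HepG2 and 3 in Huh7 cells, or 53.8% and 23.1%, beside 21.6% and 19.7% of all genes. One of the 7 is ENSG00000284931, which has no globin symbol and is not among the 9. The tables do not show whether these genes had more than a few reads in a library. These genes and terms were named after their values were seen, and the difference between the lines was not tested.

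Iron ion homeostasis had 21 of 87 background genes listed in HepG2 and 25 in Huh7 cells, or 24.1% and 28.7%, with 13 in both. The shares of all genes listed were 21.6% and 19.7%.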
